A study of Homo sapiens with 15 samples.

Results

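The regions described here are 755 stretches of open chromatin in 3 windows of human chromosome 19 that hold the large clusters of KRAB zinc finger genes. The windows were fixed by position on the genome build hg19. Window 1 was chr19:20000000-24500000 (band 19p12), window 2 was chr19:36800000-38200000 (band 19q13.12) and window 3 was chr19:52400000-58900000 (band 19q13.4). The peaks of all 15 deposited lists were joined wherever they shared 1 bp or more, and each merged region that lay in a window became a member. Window 1 held 114 members, window 2 held 52 and window 3 held 589, and 0 merged regions crossed a window edge. The members made up 12.3% of the 6129 merged regions of chromosome 19 and belonged to 120992 merged regions on the autosomes and the X chromosome. The choice used position alone, so density, width and strength of the peaks had no part in it.

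KRAB zinc finger proteins form the largest family of transcription factors in the human genome. Each carries a tandem array of zinc fingers that recognises DNA and a KRAB domain that binds the co-repressor TRIM28 (KAP1), which brings in the histone methyltransferase SETDB1 and heterochromatin protein HP1 and leads to trimethylation of lysine 9 on histone H3. Many of these proteins silence transposable elements. ZNF91 of band 19p12, for example, represses SVA retrotransposons. The genes arose by repeated tandem duplication and stand in clusters on chromosome 19, with ZNF43, ZNF91, ZNF208 and ZNF254 in band 19p12, ZNF568, ZNF570, ZFP30 and HKR1 in band 19q13.12, and ZNF274, ZNF304 and ZNF331 in band 19q13.4. In many cell types the bodies of such genes carry the histone mark H3K9me3 while their promoters stay open. Window 3 also holds, in its middle, immune receptor genes of the LILR and KIR families that are not zinc finger genes. Neighbouring copies are similar in sequence, so the assignment of short reads among them is uncertain. How reads with several matches were treated is not given in the sources used here, and its part in the values below was not tested.

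Open chromatin was mapped by sequencing the ends left by nuclease digestion of nuclei of K562, an erythroleukemia cell line obtained from ATCC. All 15 libraries came from cells that carried a puromycin-selected lentivirus encoding catalytically dead Cas9 (dCas9), alone or fused to a KRAB domain, the same kind of repressor domain that the clustered genes encode. There were 5 groups of 3 libraries: dCas9-KRAB without a gRNA, dCas9 plus the gRNA CR4, dCas9 plus the gRNA CR10, dCas9-KRAB plus CR4 and dCas9-KRAB plus CR10. Both gRNAs targeted HS2, an enhancer of the beta-globin locus on chromosome 11, so that chromosome 19 carried no intended target. No group had dCas9 without a gRNA, and 1 annotation field named HS2 as the target in the group without a gRNA too, so the groups followed the sample titles. The series text speaks of transductions in triplicate but does not tie library numbers to cultures. If they are not separate cultures, every p-value below reflects technical spread alone.

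The deposited lists held between 53147 and 94777 peaks (median 67779), and the number of sequenced fragments behind them is not given in the sources used here. HS2, which should be open in an erythroid line, had a peak in 15 of 15 lists. A library's list held between 387 and 615 peaks in the 3 windows (median 497), which was 12.04% to 12.65% of its peaks on chromosome 19. Between 350 and 594 of the 755 members had a peak in a given library (median 468). The lowest number came from replicate 1 and the highest from replicate 3 of dCas9 plus CR10, the libraries with the shortest and the longest list.

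Open regions were sparser in the KRAB zinc finger windows than on the rest of chromosome 19. The merged regions stood at 60.9 per Mb in the 3 windows together and at 125.1 per Mb on the rest of the chromosome, with 5374 regions on 42.95 Mb. That length leaves out the longest stretch without a peak, of 3.995 Mb around the centromere, as far as it lies outside the windows. Its first 229.5 kb lie in window 1 and were kept in the length of that window. Window 1 was the sparsest with 25.3 regions per Mb, window 2 had 37.1 and window 3 had 90.6. The other autosomes and X together had 40.4 per Mb. Chromosome 19 is the most gene-dense human chromosome. By merged regions, windows 1 and 2 lay below the value of the other chromosomes and window 3 above it.

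The windows were less dense than the rest of chromosome 19 in every library. Per library, the windows held 40.8 ± 5.21 peaks per Mb (SD, n = 15) and the rest of chromosome 19 held 83.5 ± 10.9. The ratio of the densities was 0.474 in the lowest library, 0.487 in the median library and 0.502 in the highest. The mean log2 ratio was −1.03 ± 0.0283 (0.489 times), lower in 15 of 15 libraries, and a two-sided exact permutation test that flips the sign of each library's value gave p = 6.1e-05, the smallest p it can give. These libraries share 1 cell line and 1 set of windows, so the p speaks for repeated libraries and not for other clusters or cells.

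Each window taken alone was also less dense than the rest of the chromosome. Window 1 held 15.6 ± 2.70 peaks per Mb (SD, n = 15), 0.185 times the density of the rest, and its ratio ran from 0.146 to 0.215. Window 2 held 25.3 ± 4.32 (0.302 times) and window 3 held 61.6 ± 7.60 (0.739 times). The exact sign-flip permutation test gave an adjusted p of 0.000137 for each, over 9 tests of 3 windows and 3 measures, with lower values in 15 of 15 libraries. The windows also differed from one another in density in all 3 pairs (adjusted p = 7.8e-05 each, exact sign-flip permutation, adjusted over the 9 tests of 3 pairs and 3 measures). Window 1 had 0.614 times the density of window 2 and 0.251 times that of window 3, and window 2 had 0.408 times that of window 3.

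**Figure D1:**
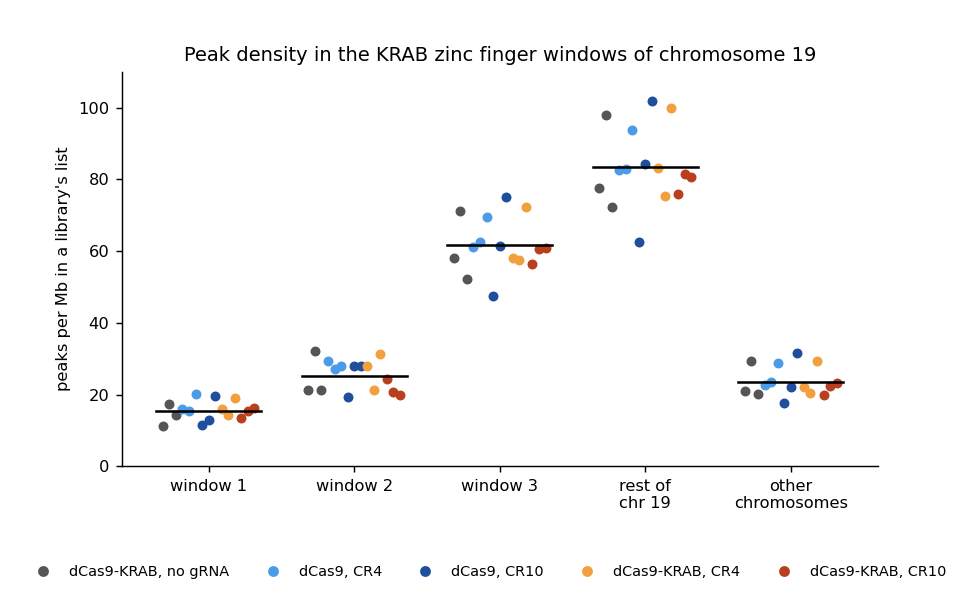
Peaks per Mb of sequence in each library's deposited list (vertical axis), in the 3 windows, on the rest of chromosome 19 and on the other autosomes and X, with 1 point per library coloured by group and a line at the mean of 15 libraries. The mean rose from 15.6 in window 1 over 25.3 in window 2 and 61.6 in window 3 to 83.5 on the rest of chromosome 19, and the other chromosomes had 23.6.

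The comparison depends on what the windows are set against. The windows were also set against all autosomes and X outside them and not against the rest of chromosome 19. The log2 ratio was then 0.74 for the 3 windows together (exact sign-flip permutation p = 6.1e-05, not adjusted). For window 3 it was 1.34 (exact sign-flip permutation, adjusted p = 9.2e-05), and both lay above the genome. It was 0.05 for window 2 (adjusted p = 0.326). It remained below 0 for window 1, at −0.66 (adjusted p = 9.2e-05).

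Along the chromosome the sparse stretches ran through window 1 and were patchy in window 3. Of 111 bins of 0.5 Mb, 24 lay in the windows, and 11 of the 20 sparsest bins were among them, 8 in window 1. The 9 bins of window 1 held 8 to 66 regions per Mb (median 22). The densest of them, from 21.5 to 22 Mb, held 33 members. The 13 bins of window 3 ranged from 18 to 206 (median 86), with 9 members from 57 to 57.5 Mb and 103 members from 55.5 to 56 Mb. The 87 bins of the rest had a median of 130 and ran from 14 to 244, and 16 of them lay below the densest bin of window 1.

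**Figure D2:**
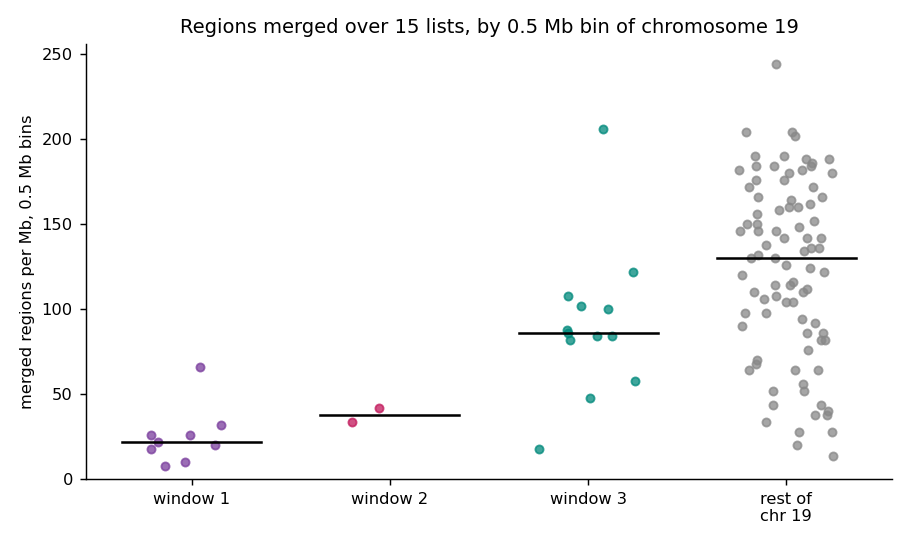
Merged regions per Mb (vertical axis) in bins of 0.5 Mb, grouped by the window that holds their midpoint, with 1 point per bin and a line at the median of each set. Horizontal scatter carries no meaning. The medians were 22 in window 1, 38 in window 2, 86 in window 3 and 130 on the rest of chromosome 19.

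Neighbouring members stood farther apart in windows 1 and 2 than in window 3 or on the rest of the chromosome, and the median gap was longest in window 2. Gaps were taken from midpoint to midpoint of neighbouring regions. The median gap was 18.97 kb in window 1, 21.3 kb in window 2 and 6.88 kb in window 3, against 5.46 kb on the rest of the chromosome. The longest gap between members was 196.8 kb in window 1. After the last member of window 1 (chr19:24269709-24270517) no library had a peak up to position 28265864. This member, close to the centromere, had a peak in 15 of 15 lists and was 1 of the 4 strongest of its window.

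The share of regions found in every library was close to that of the rest in windows 2 and 3 and smaller in window 1, given here as a description. Of the 755 members, 303 (40.1%) had a peak in all 15 deposited lists, and on the rest of chromosome 19 this was 2301 of 5374 (42.8%). The share was 32.5% in window 1 (37 members), 44.2% in window 2 (23) and 41.3% in window 3 (243). At the other end, 121 members (16.0%) had a peak in a single list, against 16.1% on the rest. Members seen in all lists were wide, with a median merged width of 668 bp. Members seen in 2 to 14 lists had a median of 308 bp, and those seen in 1 list had 210 bp. Merged widths grow with the number of lists merged, so these widths are not independent of the counts.

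Window 1, the cluster of band 19p12, held few peaks, some of them strong. Strength was read from the fold column, the authors' enrichment of a peak's summit over its local background, as a rank percentile within a list in which 100 is the strongest peak. For single members the lists were first shortened to the 53098 strongest peaks, so that all had equal length, and a member without a peak got 0. The strongest member, chr19:21511625-21512440 (816 bp), had percentiles from 94.2 to 99.9 (median 98.8) over the 15 libraries. All 15 libraries thus placed it among their strongest peaks, with replicate 1 of dCas9-KRAB plus CR4 lowest. Next came chr19:21203166-21203990 with a mean of 97.9 and chr19:21579605-21580107 with 97.7. The widest members were chr19:23869430-23870307 (878 bp, mean percentile 91.7) and chr19:21688154-21689025 (872 bp, 91.3), and 0 of 114 members reached 1 kb.

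Window 2, the cluster of band 19q13.12, had the largest median peak width of the 3 windows. Its strongest member, chr19:36869516-36870349 (834 bp), ranked between 97.6 and 99.7 in the 15 libraries (median 98.7). The spread was narrow, and no library placed this member outside its strongest 10%. The members chr19:37178137-37178888, chr19:37663236-37663987 and chr19:37701077-37701789 followed with mean percentiles of 96.9, 95.5 and 94.2. The widest were chr19:38145588-38147294, at 1707 bp, and chr19:36979734-36981104, at 1371 bp. Both had a peak in 15 of 15 lists and mean percentiles of 81.4 and 83.1, below those of the narrower members just named. Of the 52 members, 6 (11.5%) were at least 1 kb wide, against 298 of 5374 (5.55%) on the rest of the chromosome.

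Window 3, the cluster of band 19q13.4, held the strongest members of the 3 windows. The regions chr19:53324206-53325163 and chr19:53360221-53361172 had mean percentiles of 99.8 each. The lowest value of either over 15 libraries was 99.5. The regions chr19:55574262-55574830 (99.7) and chr19:56028186-56028909 (99.3) followed, and all 4 had a peak in every list. The widest member, chr19:56110209-56112037 (1829 bp), ranked at 55.9 on average, from 39.2 to 73.4. The second widest, chr19:54693108-54694889 (1782 bp), ranked lower at 19.5, from 0.228 to 40.4, although a median of 121 fragments was implied at its summit. Its implied local background had a median of 21.3 fragments, against 7.16 at the strongest member of the window, so a wide member in a high background had a low rank by fold.

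**Figure D3:**
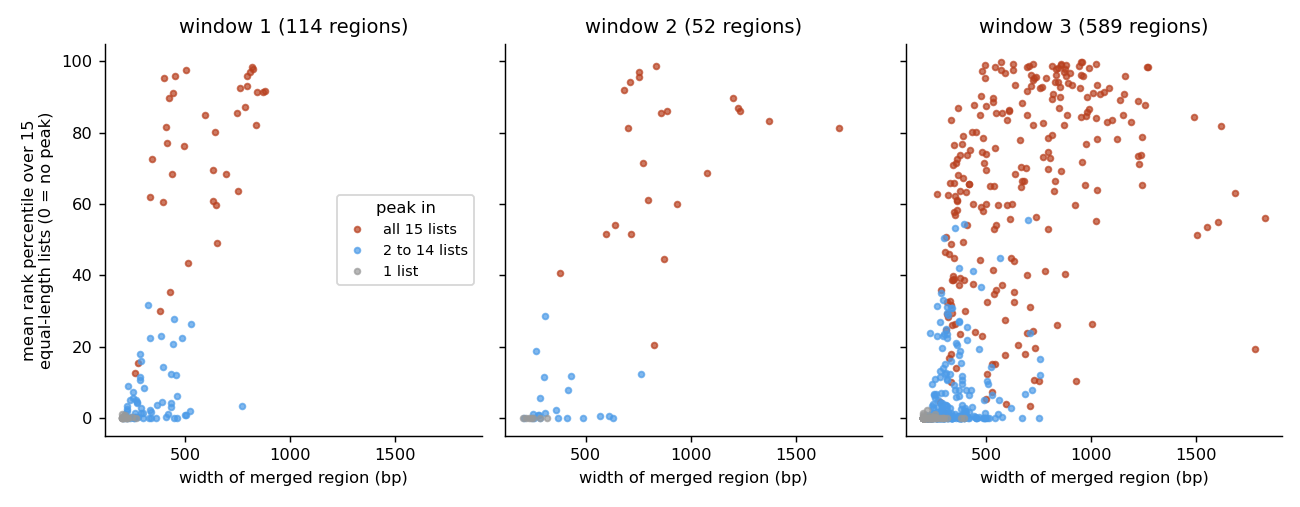
Width of each merged region in bp (horizontal axis) against its mean rank percentile over 15 equal-length lists (vertical axis, 0 for no peak), 1 panel per window and 1 point per member, coloured by the number of deposited lists with a peak. No member of window 1 reached 1000 bp, and window 3 holds both the strongest member (mean percentile 99.8) and wide members of low rank.

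The 3 stretches of window 3 differed from one another, which is given as a description. Before 54 Mb there were 123 members at 76.9 per Mb, between 54 and 56 Mb, where the immune receptor genes lie, 250 members at 125.0 per Mb, and after 56 Mb 216 members at 74.5 per Mb. Taken whole, the middle stretch was thus as dense as the rest of chromosome 19, but its regions were unevenly spread. It held 84 regions per Mb from 54 to 54.5 Mb and 122 from 54.5 to 55 Mb. From 55 to 55.5 Mb it held 88 per Mb, and from 55.5 to 56 Mb 206, with 103 of the 250 members. Regions were not assigned to genes, so the part of the immune receptor genes in this density was not tested. The median rank percentile of peaks in the middle stretch was 52.0 ± 3.57 (SD, n = 15). It was 70.7 ± 9.69 before 54 Mb and 61.3 ± 3.65 after 56 Mb. The share of peaks in the strongest 10% of a list was 33.0% before 54 Mb, 9.06% in the middle and 21.8% after 56 Mb. Peaks of high rank were thus more frequent in the outer stretches of window 3 than in its middle.

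Members at the window edges show what the fixed bounds take in. The nearest regions inside and outside the lower edge of window 1 were narrow and weak on both sides, with mean percentiles of 2.27 and 2.60. At the upper edge of window 2 the region outside, chr19:38210031-38210937, was strong (93.9, 10.0 kb beyond the edge), while the member inside ranked at 0.555. At the upper edge of window 3 the member inside, chr19:58897779-58898805, was strong (93.2), and the region outside ranked at 1.14. Strong and weak regions thus stood on either side of the bounds.

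Peak width in the pooled windows could not be told from that on the rest of chromosome 19, while windows 1 and 2 differed from it in opposite directions. The median width was 333.2 ± 6.95 bp in the windows and 333.8 ± 6.79 bp on the rest (SD, n = 15), a difference of −0.667 ± 6.22 bp (exact sign-flip permutation p = 0.706). Window 1 had narrower peaks, 312.3 ± 18.9 bp, a difference of −21.5 bp that was lower in 14 of 15 libraries (adjusted p = 0.000275, exact sign-flip permutation). Window 2 had wider peaks, 482.5 ± 60.6 bp, a difference of 148.7 bp that was higher in 14 of 15 libraries (adjusted p = 0.00022, exact sign-flip permutation). The exception was replicate 1 of dCas9 plus CR4, at −5 bp. The medians of window 2 ran from 331 to 561 bp and rest on few peaks, since the window held 52 members. Within a library the quartiles of width in window 2 averaged 274.9 and 688.5 bp. Window 3 differed by 0.167 bp (adjusted p = 0.935, exact sign-flip permutation), and by 23.1 bp without its stretch from 54 to 56 Mb (adjusted p = 9.2e-05). Peaks of at least 500 bp made up 16.2% of window 1, 48.9% of window 2, 25.8% of window 3 and 24.9% of the rest. For the pooled windows, leaving out the 54 to 56 Mb stretch gave a difference of 12.8 bp. Keeping only peaks with a −log10 q-value of at least 10 gave 10.9 bp (exact sign-flip permutation p = 0.000122 each, not adjusted). Under these settings the pooled windows had the wider peaks.

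By fold, peaks in the windows ranked higher than those on the rest of the chromosome. The median percentile in the deposited lists was 58.2 ± 1.65 in the windows and 55.0 ± 1.53 on the rest (SD, n = 15). The difference of 3.22 points was higher in 14 of 15 libraries (exact sign-flip permutation p = 0.000122), and ran from −0.00964 in replicate 3 of dCas9-KRAB plus CR10 to 7.84 in replicate 2 of dCas9 plus CR10. It was largest in window 2, at 68.0 ± 6.27, 13.0 points above the rest in 15 of 15 libraries (adjusted p = 0.000137, exact sign-flip permutation). Window 3 lay 2.28 points above in 12 of 15 libraries (adjusted p = 0.00149). Window 1, at 56.9 ± 6.54, differed by 1.92 points, higher in 10 of 15 libraries, which did not pass the exact permutation test (adjusted p = 0.373). In lists of equal length its difference was 3.66 points (adjusted p = 0.00721), and among peaks with a −log10 q-value of at least 10 it was 14.4 points (adjusted p = 0.000137).

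The direction turned when strength was read as the number of fragments at the summit. Fold and p-value together imply 2 numbers for each peak, the pileup of fragments at the summit and the local background. The median pileup was 56.2 ± 8.57 fragments in the windows and 67.2 ± 11.5 on the rest (0.839 times). It was 36.6 ± 5.18 in window 1 (0.547 times), 50.5 ± 9.65 in window 2 (0.749 times) and 61.6 ± 9.24 in window 3 (0.920 times). The background was lower still, at 7.004 ± 1.92 fragments against 9.16 ± 2.55 (0.767 times), with 4.47 in window 1 (0.488 times), 5.26 in window 2 (0.574 times) and 7.87 in window 3 (0.862 times). Each of these 8 ratios was below 1 in 15 of 15 libraries (exact sign-flip permutation, adjusted p = 6.1e-05 each). The called peaks in the windows thus held fewer fragments over a lower background, and the higher rank by fold went with the lower background. A low quantile of the implied background over all peaks of a library ran from 2.21 to 5.81 fragments. The medians of window 1 ran from 2.93 to 6.78, toward the low end of that scale. The part of the background in the rank was not tested.

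**Figure D4:**
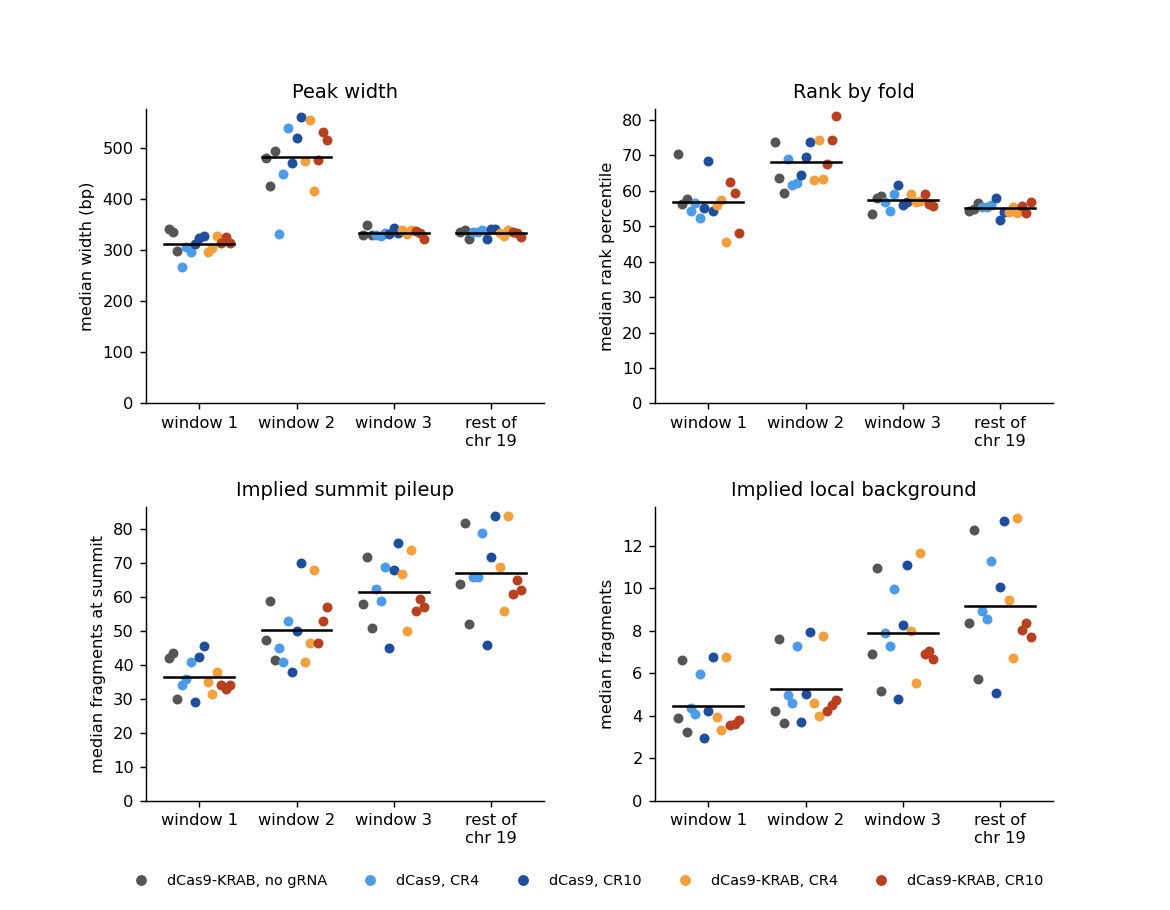
Median peak width in bp, median rank percentile by fold in the deposited list, median implied summit pileup and median implied local background, both in fragments, for the 3 windows and the rest of chromosome 19, with 1 point per library coloured by group and a line at the mean of 15 libraries. Window 2 stands out in width (482.5 bp) and rank (68.0), and window 1 has the lowest pileup (36.6) and background (4.47).

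By rank of fold, the deficit of peaks was smallest among the strongest. These classes follow fold alone, and classes by summit pileup were not formed. Peaks of the strongest 10% of a list stood at 7.94 ± 1.21 per Mb in the windows and 11.4 ± 1.44 per Mb on the rest (0.692 times). For percentiles from 50 to 90 the ratio was 0.446, and for peaks below 50 it was 0.467. In window 3 the strongest 10% stood at 11.5 ± 1.53 per Mb (1.01 times, range 0.923 to 1.07). They did not pass a test against the rest (adjusted p = 0.512, exact sign-flip permutation, over 12 tests). Its peaks from 50 to 90 had a ratio of 0.680 and those below 50 a ratio of 0.711. The value for the strongest 10% is a mean over unlike stretches. This class held 33.0% of peaks before 54 Mb, 9.06% from 54 to 56 Mb and 21.8% after 56 Mb. Window 1 lacked peaks of all 3 classes, with ratios of 0.293, 0.155 and 0.182, and window 2 had 0.510, 0.294 and 0.249. These 11 ratios other than that of the strongest 10% in window 3 had an adjusted p of 6.7e-05. As a share of all peaks in a set, the strongest 10% made up 19.4% ± 0.838 in the windows (21.7% in window 1, 23.3% in window 2 and 18.7% in window 3) and 13.7% ± 0.836 on the rest. Of the 755 members, 76 (10.1%) had a mean percentile of at least 90 over the equal-length lists, 13 in window 1, 5 in window 2 and 58 in window 3, and their median merged width was 822.5 bp.

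The 3 windows were also compared with one another in width and strength. The median width of window 1 differed by −170.2 bp from that of window 2 and by −21.7 bp from that of window 3, and window 2 exceeded window 3 by 148.5 bp (exact sign-flip permutation, adjusted p = 7.8e-05, 0.000412 and 7.8e-05). In rank, window 2 exceeded window 3 by 10.8 points and window 1 differed from window 2 by −11.1 points, each in 15 of 15 libraries (adjusted p = 7.8e-05, exact sign-flip permutation). Windows 1 and 3 differed by −0.355 ± 7.44 points (adjusted p = 0.859). On the implied pileup window 2 lay below window 3, with a log2 difference of −0.29 (adjusted p = 6.9e-05).

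The series compared cells in which dCas9-KRAB was directed to HS2 with controls, and for chromosome 19 the comparison asks whether open chromatin at the KRAB zinc finger clusters differed with the fusion or the gRNA. Of 27 comparisons, 9 pairs of sides on 3 measures, 0 passed at an adjusted p of 0.05, and the lowest adjusted p was 0.45. The density ratio of windows to rest averaged 0.481 in dCas9-KRAB without a gRNA, 0.4996 in dCas9 plus CR4, 0.487 in dCas9 plus CR10, 0.486 in dCas9-KRAB plus CR4 and 0.491 in dCas9-KRAB plus CR10. The highest was 1.04 times the lowest. With the 6 libraries of dCas9-KRAB and a gRNA against the other 9, the log2 density ratio differed by −0.000911 (two-sided exact permutation p = 0.953), the width difference by 2.08 bp (p = 0.563) and the strength difference by −0.0654 points (p = 0.957).

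With the 9 libraries that expressed dCas9-KRAB against the 6 with dCas9, 1 of 3 measures passed an unadjusted threshold. Relative to the rest of chromosome 19, window peaks were 2.11 ± 3.56 bp wider with dCas9-KRAB (SD, n = 9) and differed by −4.83 ± 7.31 bp with dCas9 (n = 6). The gap of 6.94 bp had a two-sided exact permutation p of 0.0276 and an adjusted p of 0.45 over the 27 comparisons, which it did not pass. In equal-length lists the gap was 3.83 bp (exact permutation p = 0.447), and among peaks with a −log10 q-value of at least 10 it was 3.64 bp (exact permutation p = 0.174). The lowest values came from dCas9 plus CR4, at −9.33 ± 5.51 bp (n = 3). Density differed by −0.02 in log2 (exact permutation p = 0.177) and strength by 0.150 points (exact permutation p = 0.899). With the stricter q-value density differed by −0.03 (exact permutation p = 0.0334, adjusted p = 0.9).

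In comparisons of 3 libraries against 3, where the exact permutation test cannot go below 0.1, the 2 groups did not overlap in 5 of 21. Of these, 4 involved dCas9 plus CR4. Its 3 libraries stood at log2 density ratios from −1.01 to −0.99, all above the 3 libraries without a gRNA, at −1.07 to −1.05. Its width difference (−15 to −4 bp) and strength difference (0.363 to 1.99 points) lay below those of the same controls (0 to 9 bp and 2.21 to 5.36 points). Its width difference also lay below that of dCas9-KRAB plus CR4 (−1 to 3 bp). The fifth was the density ratio of dCas9-KRAB plus CR10 against no gRNA. Each had p = 0.1 by exact permutation and an adjusted p of 0.45, and 4 of the 5 share the same 3 control libraries. In equal-length lists the groups overlapped in all 5. There the strength difference of dCas9 plus CR4 against no gRNA turned from −2.21 to 1.57 points. The width difference between dCas9-KRAB plus CR4 and dCas9 plus CR4 went from 10.3 to 1.67 bp. In these lists 1 other comparison did not overlap, the strength of dCas9-KRAB plus CR4 against dCas9-KRAB plus CR10 (3.05 points). With a −log10 q-value of at least 10, 2 of 21 did not overlap, both between dCas9-KRAB plus CR4 and dCas9 plus CR4. They were density (−0.0517 in log2) and again width (5.17 bp), each with an adjusted p of 0.9 (exact permutation).

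**Figure D5:**
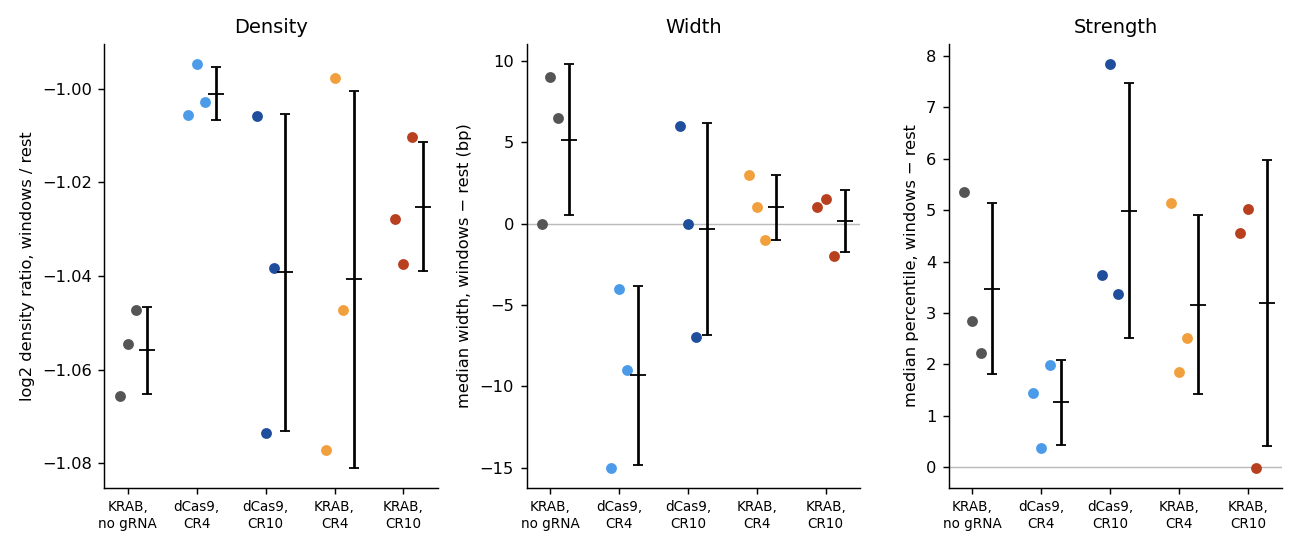
Log2 ratio of peak density, difference of median width in bp and difference of median rank percentile between the windows and the rest of chromosome 19 (vertical axes), with 1 point per library in the 5 groups and bars for mean ± SD of 3 libraries. Only differences are drawn, so the axes do not start at 0 for density; dCas9 plus CR4 has the highest density ratio and the lowest width and strength differences, and 0 of 27 comparisons passed an adjusted threshold.

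No single member passed the test between groups. By rank in equal-length lists, limma tested 447 of the 755 members, those with a peak in at least 3 lists, among 62833 regions, and 225 members had no peak in any shortened list. At an adjusted p of 0.05 it called 0 members in each of 9 comparisons, and 0% of all regions. At an unadjusted p under 0.05, dCas9-KRAB plus CR4 against no gRNA gave 10 members, 2.24% of those tested, where 2.43% of all regions did so. For dCas9-KRAB plus CR10 against no gRNA it was 6 members (1.34%, all regions 2.81%), for dCas9 plus CR4 4 members (0.895%, all regions 1.39%) and for dCas9 plus CR10 13 members (2.91%, all regions 2.97%). The fusion against dCas9 gave 7 members under CR4 (1.57%, all regions 1.25%) and 6 under CR10 (1.34%, all regions 2.5%). CR4 against CR10 under dCas9-KRAB gave 11 members (2.46%, all regions 2.65%). The pooled comparisons gave 6 members for dCas9-KRAB with a gRNA against the other 9 libraries (1.34%, all regions 1.72%) and 0 for any dCas9-KRAB against dCas9 (all regions 0.942%). The shares of members were near or below those of all regions.

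On the implied summit pileup, limma tested the 303 members with a peak in all lists and again called 0 in each comparison, with 0% of 38888 regions called. At an unadjusted p under 0.05 there were 0 to 4 members in a comparison. Against no gRNA the counts were 2 for dCas9-KRAB plus CR4 (all regions 0.723%), 0 for dCas9-KRAB plus CR10 (0.841%), 3 for dCas9 plus CR4 (0.311%) and 1 for dCas9 plus CR10 (1.09%). The fusion against dCas9 gave 2 members under CR4 (all regions 0.211%) and 4 under CR10 (1.32% of members, all regions 1.3%), and CR4 against CR10 under dCas9-KRAB gave 3 (all regions 0.717%). In the pooled comparisons there were 3 for dCas9-KRAB with a gRNA (all regions 0.769%) and 2 for any dCas9-KRAB against dCas9 (all regions 0.46%). With at most 4 members in a comparison, nothing was read from these shares. The median log2 difference of the members ran from −0.03 to 0.03 over the 9 comparisons, and the median of all regions from −0.02 to 0.01.

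The members with the lowest p in the pooled comparisons show the size of differences that did not pass. In the comparison of dCas9-KRAB with a gRNA against the other 9 libraries, chr19:58609103-58609915 was a strong member in all libraries, from 80.9 to 92.8 (median 87.7) in the 6 and from 86.0 to 94.7 (median 91.8) in the 9, and the groups overlapped. The difference was −3.42 points (SE 1.54, limma adjusted p = 1). The member chr19:58533265-58533634 differed by −15.5 points (SE 6.76, limma adjusted p = 1), with 2 of the 6 libraries at 0. The members chr19:53676205-53676488 and chr19:23366165-23366429 were narrow, weak regions with higher values in the 6 libraries, by 10.67 and 11.03 points (limma adjusted p = 1 each). For the first, 3 of the 6 and 9 of the 9 other libraries were at 0, so it was tested only through peaks in the group where it is high and its difference is a description. For the second, 3 of the 6 and 6 of the 9 were at 0.

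In the comparison of dCas9-KRAB with dCas9, the largest shift among the named members was at chr19:20162865-20163379, near the start of window 1. It ranked from 28.04 to 48.23 (median 39.1) in the 9 libraries with dCas9-KRAB and from 42.1 to 64.0 (median 48.8) in the 6 with dCas9, a difference of −11.2 points (SE 5.35, limma adjusted p = 1). The groups overlapped. The member chr19:54023736-54024507 differed by −7.58 points (SE 3.63) and chr19:53394646-53395172 by 7.81 points (SE 4.19), with a limma adjusted p of 1 for both. The latter was weak, with 3 of the 9 dCas9-KRAB libraries and 4 of the 6 dCas9 libraries at 0. On the implied pileup the first 2 had log2 differences of −0.18 and −0.19 (SE 0.12 and 0.11, limma adjusted p = 1).

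Presence and absence in the deposited lists gave few members per comparison. In the 2 pooled comparisons 0 members had a peak in all libraries of one side and in none of the other, as had 0% of all regions. In the 7 comparisons of 3 libraries against 3 there were 1 to 3 such members, 8 distinct ones in all, which were picked after their values were seen. Against no gRNA, dCas9-KRAB plus CR4 gave 1 member (0.132%, against 0.155% of all regions), dCas9-KRAB plus CR10 gave 3 (0.397% against 0.275%), dCas9 plus CR4 gave 1 (background 0.0479%) and dCas9 plus CR10 gave 1 (background 0.0793%). Between dCas9-KRAB and dCas9 there was 1 for each gRNA (background 0.159% each), and between CR4 and CR10 under dCas9-KRAB there were 2 (0.265% against 0.331%). With 1 to 3 members a comparison, these shares cannot be told from the background. In equal-length lists, where 530 members had a peak, a comparison gave 0 to 3 members, against 0.173% to 0.376% of all regions, and 10 distinct ones in all. Only 3 of the 8 were among them in the same comparison and direction, namely chr19:53339193-53339485, chr19:21439555-21439860 and chr19:20067602-20067851.

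The region chr19:53966572-53966859 was the member gained against no gRNA with both gRNAs under dCas9-KRAB in the deposited lists, and with neither in equal-length lists. Its peaks had implied pileups of 33, 27 and 42 fragments with dCas9-KRAB and CR4 and of 34, 34 and 40 with dCas9-KRAB and CR10. It was also found with dCas9 alone, in 1 CR4 library (49 fragments) and 2 CR10 libraries (33 and 53), so it was not particular to libraries with the KRAB domain. The region chr19:53339193-53339485, between the 2 strongest members of window 3, was present in all 3 libraries without a gRNA (17, 51 and 16 fragments) and all 3 of dCas9-KRAB plus CR4 (15, 16 and 39), and in 0 of 3 of dCas9-KRAB plus CR10. It was missing as well from 1 library each of dCas9 plus CR4 and of dCas9 plus CR10. The other member lost in dCas9-KRAB plus CR10 was chr19:54959366-54959820, which had no peak in any equal-length list and thus lay outside the 53098 strongest peaks of each library.

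The remaining members of this kind were weak too. In window 1, chr19:21439555-21439860 was gained in dCas9 plus CR4 against no gRNA (21, 20 and 34 fragments), chr19:20067602-20067851 was lost in dCas9 plus CR10 against no gRNA, and chr19:24187079-24187488 was gained in dCas9-KRAB plus CR10 against dCas9 plus CR10 (17 fragments in each of 3 libraries). In window 3, chr19:54494506-54494886 was lost in dCas9-KRAB plus CR4 against dCas9 plus CR4, and chr19:55910853-55911210 was present in dCas9-KRAB plus CR4 and not in dCas9-KRAB plus CR10. All 8 members had peaks in 7 to 10 of the 15 lists, and their mean percentile over the equal-length lists was at most 13.97.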

How the data were processed

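Each library was represented by its own peak list in narrowPeak layout. CASAVA 1.3, BWA (genome build hg19) and bedtools are named per the submitters' processing notes. Which program called the peaks, at which threshold and from how many fragments is not given in the sources used here, although peak names carry the prefix that MACS writes. The authors deposited for each peak a score, a fold over the local background (a ratio), a −log10 p-value, a −log10 q-value and the offset of the summit in bp. Replicates were not pooled in these lists, per the labels, and no normalization between libraries is recorded in them.

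From these lists, peaks on the autosomes and X were merged by at least 1 bp, and members were taken by position. Density was the number of peaks per Mb, width the length of a deposited peak, and strength the rank percentile by fold within the list. Summit pileup k and background λ were solved from fold = (k + 1)/(λ + 1) and the Poisson p-value, and for 100% of peaks a whole number k gave the deposited −log10 p-value to within 0.01.

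Windows were compared with the rest of chromosome 19 by two-sided exact sign-flip permutation over 15 libraries, and groups by two-sided exact permutation of the difference of means (5005 splits for 6 against 9, 20 for 3 against 3). Single regions were fitted by limma with a mean-variance trend over all 5 groups, on the rank percentile in lists of 53098 peaks (regions with a peak in at least 3) and on log2(k + 1) less the library's median. All p-values are two-sided. Those called adjusted were adjusted by Benjamini and Hochberg within their family of tests. The tests of the pooled windows against their reference were not adjusted. The scripts were tested on simulated data. Named members are the 4 strongest and 2 widest of each window, those nearest the window edges, those past an adjusted p of 0.05 (0 here) and the 2 with the lowest limma p in each direction of the pooled comparisons. Windows and members were set by position and not from peak values. Earlier results of these data were known when the windows, the lists and the implied pileup as a second measure were chosen. Regions were not assigned to genes, and no sequence is printed, because no annotation or genome of hg19 was used here. Alternatives covered list length, a stricter q-value threshold, the reference set, the extent of window 3, merging, filters, scales, omission of each library and a replicate block. Python 3.11.15 with numpy 2.4.6, pandas 2.3.3, scipy 1.17.1 and matplotlib 3.10.9, and R 4.3.3 with limma 3.58.1, were used.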

Additional observations from a re-analysis of the deposited data

How the results depend on the processing

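The density of the 3 windows below the rest of chromosome 19 kept its direction and passed the test in lists of equal length, under a stricter q-value, with 1 peak per merged region, with the peak-free stretch kept and without any single library. Against all autosomes and X outside the windows it turned, to 0.74 in log2 for the pooled windows, 0.0475 for window 2 and 1.34 for window 3, and the width difference of window 1 turned to 10.9 bp. That reference also gave width differences of 31.8 bp (pooled) and 32.6 bp (window 3) and a strength difference of 6.92 points in window 1. Peaks with a −log10 q-value of at least 10 gave width differences of 10.9 bp (pooled) and 8.43 bp (window 3), 14.4 points for the strength of window 1 against the rest and 8.92 against window 3. Without 54 to 56 Mb, width differed by 12.8 bp (pooled) and 23.1 bp (window 3), and window 1 lay at −6.60 points against window 3. On the log2 implied pileup strength turned to −0.25 (pooled), −0.85, −0.41 and −0.12 in windows 1, 2 and 3, and −0.29 for window 2 against 3, with −0.73 for window 1 against 3. Equal-length lists gave 3.66 points for window 1 against the rest and 0.402 against window 3. As the share of peaks in the strongest 10%, a measure added after the ranks were seen, window 1 differed by 7.93 percentage points from the rest, −1.68 from window 2 (exact permutation, adjusted p = 0.301) and 2.95 from window 3. The cause of these shifts was not tested.

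Leaving out 1 library at a time moved the pooled width difference between −1.36 and 0.357 bp, that of window 3 between −0.571 and 0.821 bp and the strength of window 1 against 3 between −1.60 and 0.444 points. None of these differences had passed a test. For dCas9-KRAB with a gRNA against the other libraries the ranges were −0.00797 to 0.00794 in log2 density and −0.457 to 0.572 points in strength, and for dCas9-KRAB against dCas9 strength ran from −0.403 to 1.09 points. In equal-length lists these were 0.193 and −0.763 points in strength and −1.47 bp in the width of the first comparison, and the stricter q-value gave 0.276 points in strength. In each setting tried 0 of 27 group comparisons passed an adjusted p of 0.05 and limma called 0 members. Deviations of the rank percentile from the group mean were correlated between libraries of different groups, over all 62833 tested regions and not the members alone. Same-numbered libraries correlated from −0.19 to 0.42 (median 0.07, over 0.1 in 13 of 30 pairs). Pairs with different numbers had a median of −0.11, with 12 of 60 over 0.1. Of the 15 libraries, 10 correlated best with their own number, a hint from the data that libraries of 1 number share something. Deviations from a group mean cancel within the group, so the values for same and different numbers are not independent. Since not every pair was over 0.1, the numbers were not taken as pairs in the main tests. That rule cannot show that libraries of 1 number share nothing. With the replicate number as a block 0 group comparisons passed and 0 members were called. The lists hold no fragment totals, so a missing peak may be open chromatin below the threshold of a shorter list.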
